A study of Mus musculus with 4 samples.

Results

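The 8 mouse genes described here encode the topoisomerases Top1, Top1mt, Top2a, Top2b, Top3a and Top3b and the tyrosyl-DNA phosphodiesterases Tdp1 and Tdp2. They were chosen by symbol from the GRCm38.p6 (mm10) annotation, which holds 20665 protein-coding genes on the autosomes, and all 8 symbols were found, all on autosomes. Peaks were taken as belonging to a gene when they lay inside it or within 1 kb of either of its ends. The measurements were ATAC-seq peak lists, in which a transposase marks open DNA, from pachytene spermatocytes of mouse testis, the meiotic cells in which homologous chromosomes are fully paired. The treated cells had received BMH-21, a compound that blocks RNA polymerase I, at 2.5 µM for 12 h (2 libraries). The control cells, called Mock, had received DMSO (2 libraries), for a time that the labels do not state. The design text names a kit for mRNA libraries, while the extraction protocol describes tagmentation of DNA with a transposase kit, and the libraries are taken here to be tagmented DNA. Strain, genotype and age are not given in the labels. The replicates are described as biological, without saying if they are of different animals, so p-values measure only the spread between these libraries, which may be technical.

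Topoisomerases relieve the twist that builds up when DNA is copied, transcribed or recombined. Type I enzymes cut a single strand and type II enzymes cut both strands, and in each case a tyrosine of the enzyme is joined to the DNA end for as long as the cut lasts. When such a join persists, TDP1 can release the enzyme from a 3′ end and TDP2 from a 5′ end. In meiotic cells the breaks that start recombination are made by SPO11, a relative of an archaeal topoisomerase, and the TOP3A complex takes apart joined recombination intermediates. These genes are of interest under BMH-21 because the compound itself binds DNA, by intercalation.

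Each library had its own list, with 51234 and 55459 peaks in the BMH-21 libraries and 109230 and 117905 in the Mock libraries, so that the treated lists were less than 0.5 times as long as the Mock lists on average (ratio 0.470). The design text states a minimum depth for all samples, and read totals per library were not used here. A peak missing from a list fell below the threshold of the authors' peak caller, which is not the same as closed DNA, and in a bulk library fewer cells with an open site cannot be told apart from less opening in each cell. For the labelled cell type, 10 genes of pachytene spermatocytes were examined, among them Sycp1, Sycp3 and Mybl1, and all 10 had a gene-end peak in all 4 libraries. Such a peak was found for 58.7% of all 20665 autosomal protein-coding genes, so this count separates cell types only weakly. Of 26 markers of spermatogonia, spermatids, Sertoli cells, Leydig cells and leukocytes, 9 and 9 had a gene-end peak in the BMH-21 libraries, against 17 and 18 in the Mock libraries. Of these 26, 17 were held by both Mock libraries, and 8 of the 17 by neither BMH-21 library. The share was 11.7% among 14371 autosomal protein-coding genes held by both Mock libraries. The 8 were 3 of 4 leukocyte, 2 of 2 spermatid, 2 of 3 Leydig cell, 1 of 4 spermatogonial and none of 4 Sertoli cell genes. All 4 libraries held 7 markers: Wt1, Amh and Cldn11 (Sertoli cells), Kit and Zbtb16 (spermatogonia), Insl3 (Leydig cells) and Cd68 (leukocytes). Rhox5, a Sertoli cell gene, was held by both BMH-21 libraries alone. The leukocyte gene Ptprc, the spermatid genes Tnp1 and Acrv1, the spermatogonial gene Stra8, the Sertoli cell gene Gata4 and the Leydig cell genes Cyp17a1 and Hsd3b1 had none in any library.

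All 8 genes had a peak at a gene end in each of the 4 libraries, and in every gene this was the case at exactly 1 of its ends. A gene was called kept when all 4 libraries held such a peak, lost when both Mock libraries and neither BMH-21 library did, and gained in the reverse case. Among all 20665 autosomal protein-coding genes 58.7% were kept. Where both Mock libraries held such a peak (14371 genes), 84.4% were kept and 11.7% were lost, so that 8 of 8 kept genes stood close to what most such genes did. None of the 8 was kept at both ends, which 6.45% of kept genes of at least 4 kb were. The opposite ends went differently. In Top1mt, Top3a and Tdp1 the opposite end held a peak in both Mock libraries and in neither BMH-21 library, which was the fate of 61.6% of 2600 such ends across autosomal protein-coding genes of at least 4 kb. In Top1, Top2a, Top2b and Tdp2 the opposite end had no peak in any library, as in 70.8% of 10147 genes with a single kept end. In Top3b it had a peak in Mock replicate 2 alone.

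**Figure D1:**
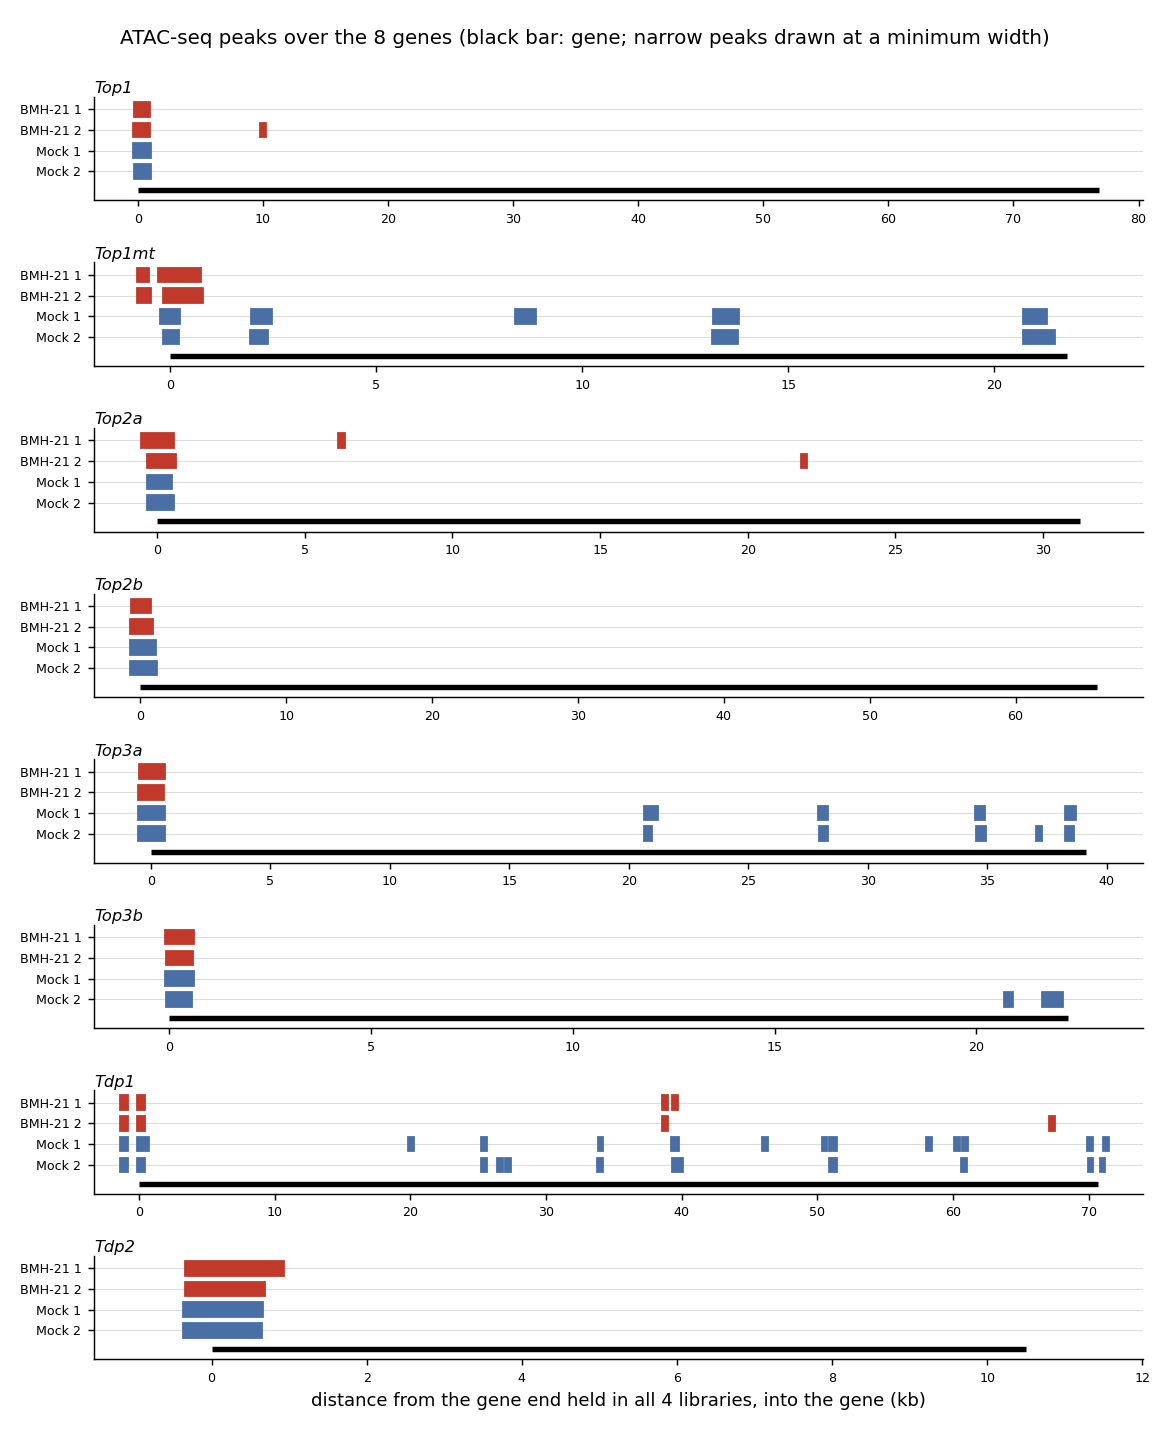
Peaks of the 4 libraries over each of the 8 genes, by distance in kb from the gene end held in all 4 libraries, with BMH-21 in red above Mock in blue and the gene as a black bar. Peaks narrower than a set share of the gene are drawn at a minimum width, and Top1mt, Top3a and Tdp1 show Mock peaks along the gene where the BMH-21 libraries have few or none.

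The number of peaks over the 8 genes was 13 and 14 in the BMH-21 libraries, against 29 and 28 in the Mock libraries. The groups did not overlap, with 13.5 ± 0.71 peaks in BMH-21 and 28.5 ± 0.71 peaks in Mock libraries (SD, n = 2 each), with p = 0.33 in a two-sided exact permutation test of the group labels. No lower p can be reached with 2 libraries in each group. Relative to the length of the lists there was no such difference. The 8 genes held 2.54 and 2.52 of every 10000 peaks in the BMH-21 lists and 2.65 and 2.37 in the Mock lists (exact permutation p = 1). Most of the difference lay inside the genes. Away from the ends, 3 and 4 peaks were called in the BMH-21 libraries and 16 and 14 in the Mock libraries, a ratio of 0.233, where all autosomal protein-coding genes had a ratio of 0.279. At the ends, 10 and 10 peaks were called in the BMH-21 libraries and 13 and 14 in the Mock libraries, a ratio of 0.741, beside 0.729 for all autosomal protein-coding genes. Peaks covered 10333 and 10120 bp of the 8 genes and their flanks in the BMH-21 libraries, against 17128 and 16203 bp in the Mock libraries (exact permutation p = 0.33). That difference of -6439 bp was -638 bp with lists of equal length and -2914.5 bp when each peak was taken as its summit with 100 bp on each side. All peaks then have the same width, so the value of -2914.5 bp follows from the number of peaks alone.

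When overlapping peaks of the 4 libraries were merged into regions, the 8 genes held 40 regions, 15 at gene ends and 25 inside the genes. Of the 13 end regions held by both Mock libraries 9 were kept and 4 were lost, against 26.5% lost among 16545 such regions of autosomal protein-coding genes. Of the 10 regions inside the genes that both Mock libraries held, 9 were lost, against 75.6% of 32950 such regions. Without Mock replicate 2 as a requirement, 15 regions inside the genes were lost. No region inside any of the 8 genes was held by all 4 libraries. The result depended on list length. For lists of equal length, each was limited to its 51234 peaks with the highest −log10 q, the significance value of the caller. The 8 genes then had 13 and 12 peaks in the BMH-21 libraries and 12 and 13 in the Mock libraries. The both-Mock regions inside the genes numbered 2 with 1 lost (in Top3a), and none of 9 end regions was lost. With lists of that length 59.3% of the both-Mock regions inside autosomal protein-coding genes and 14% of those at their ends were lost. Fewer of the 26 markers of other testis cells given above had a gene-end peak in the BMH-21 libraries than in the Mock libraries. Of the 6 Sertoli cell markers, 5 and 4 had one in the BMH-21 libraries and 4 and 4 in the Mock libraries. The part of these other cells in the result was not tested.

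**Figure D2:**
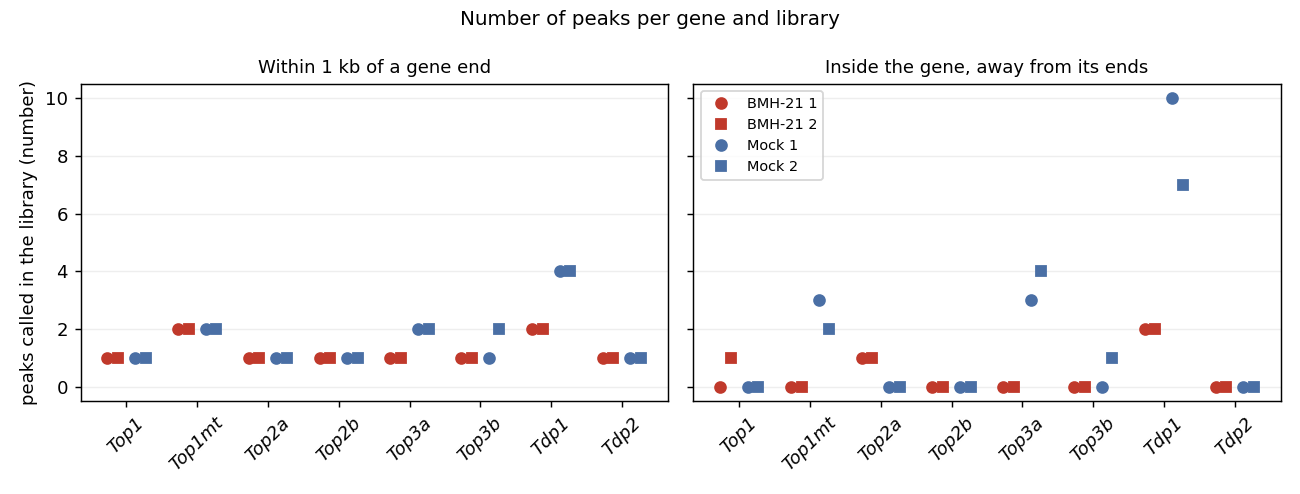
Number of peaks called per gene and library within 1 kb of a gene end (left) and inside the gene away from its ends (right), with BMH-21 in red and Mock in blue, circles for replicate 1 and squares for replicate 2. Tdp1 carries 10 and 7 peaks inside the gene in the Mock libraries and 2 in each BMH-21 library, while Top2b and Tdp2 carry none in any library.

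Top1 encodes the nuclear type I enzyme that relaxes supercoils ahead of and behind RNA polymerases. The gene lies on chromosome 2 from 160645897 to 160722764 (mm10), and its promoter window starts transcription on the plus strand at the first of these positions. Its peak at that end was 1275 and 1343 bp wide in the BMH-21 libraries and 1460 and 1423 bp in the Mock libraries, so that it was narrower in both treated libraries than in either control. The summit, the base with the highest pileup of fragments, lay 62 bp outside the gene in both BMH-21 libraries, at the same base (160645835). In the Mock libraries it lay 839 and 259 bp inside the gene. The remainder of this 76.9 kb gene held no Mock peak, and a single weak peak in BMH-21 replicate 2.

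The promoter windows of Top1, Top2a, Top2b and Tdp1 are shown because the BMH-21 summits of Top1, Top2b and Tdp1 lie in them and because the Top2a window repeats a short motif. They are RefSeq sequences of GRCm38.p6, 250 bases before to 50 after the start site, 5′ to 3′ on the strand of the gene. Capitals mark the 21 bases centred on the summit in BMH-21 replicate 1 for Top1, Top2b and Tdp1, and every CCAAT, read on either strand (as CCAAT or ATTGG), for Top2a.
Top1 (plus strand, chr2:160645647-160645946): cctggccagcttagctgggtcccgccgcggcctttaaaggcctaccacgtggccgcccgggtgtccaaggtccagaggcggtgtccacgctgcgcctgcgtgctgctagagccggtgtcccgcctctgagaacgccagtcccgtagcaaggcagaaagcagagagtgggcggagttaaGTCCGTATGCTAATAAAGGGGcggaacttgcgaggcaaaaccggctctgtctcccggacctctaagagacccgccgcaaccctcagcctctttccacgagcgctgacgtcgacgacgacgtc
Top2a (minus strand, chr11:99024140-99024439): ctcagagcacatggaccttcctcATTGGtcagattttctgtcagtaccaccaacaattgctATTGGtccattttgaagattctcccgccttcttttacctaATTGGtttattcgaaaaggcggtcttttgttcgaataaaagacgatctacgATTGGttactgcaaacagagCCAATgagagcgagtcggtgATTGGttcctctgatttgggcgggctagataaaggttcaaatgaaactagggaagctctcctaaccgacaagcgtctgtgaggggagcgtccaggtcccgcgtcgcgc
Top2b (plus strand, chr14:16364956-16365255): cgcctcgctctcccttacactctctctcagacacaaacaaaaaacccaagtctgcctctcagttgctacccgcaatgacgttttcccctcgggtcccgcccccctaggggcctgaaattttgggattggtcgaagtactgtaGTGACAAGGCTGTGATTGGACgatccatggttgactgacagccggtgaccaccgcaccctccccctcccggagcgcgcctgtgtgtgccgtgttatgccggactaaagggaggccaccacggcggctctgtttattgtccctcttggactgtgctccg
Tdp1 (plus strand, chr12:99884268-99884567): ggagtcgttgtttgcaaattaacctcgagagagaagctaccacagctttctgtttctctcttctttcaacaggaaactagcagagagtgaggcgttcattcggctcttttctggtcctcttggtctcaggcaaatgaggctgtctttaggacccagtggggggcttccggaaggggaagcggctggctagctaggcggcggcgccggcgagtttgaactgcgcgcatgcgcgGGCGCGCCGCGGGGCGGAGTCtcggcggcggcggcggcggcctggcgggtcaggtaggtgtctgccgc

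Peaks covered all 300 bases of the Top1, Top2a and Top2b windows in all 4 libraries, and 234 and 236 bases of the Tdp1 window in the BMH-21 libraries, against 218 and 219 in the Mock libraries. Top1 had 29 and Tdp1 28 CpG pairs in its window, Top2b 18, Top2a 16 and Top3b 11, against a median of 7 over 32851 promoter windows. The 90th percentile of all windows was 31, above each of these genes. From 58.6% (Top3b) to 87.1% (Top1) of windows had fewer CpG pairs. The Top2a window held 6 matches to CCAAT that do not overlap each other. At least that many were found in 0.0791% of all windows, and at least 1 in 37.4%. The Top2b window held 2, of which 1 lies within the capitals, and the Top3b window held 1. GGGCGG, on either strand, occurred 3 times in the Top1 window and in 35.7% of all windows. CCGGAAG was matched in the Tdp1 window once on each strand, the matches overlapping, and in 8.86% of all windows. These matches describe letters of the reference and were not tested for binding.

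Top1mt encodes the mitochondrial type I enzyme, which acts on the mitochondrial genome. The gene lies on chromosome 15 from 75657033 to 75678800, and its right-hand end, the higher coordinate, held a peak in all 4 libraries. That peak was 1045 and 973 bp wide in the BMH-21 libraries and 491 and 407 bp in the Mock libraries, the widest gap between the groups among the 8 genes. It reached 740 and 782 bp into the gene in the BMH-21 libraries, against 240 and 217 bp in the Mock libraries, while the summits stayed within 45 bp of the gene end in all 4. A further region just outside the gene, from 75679281 to 75679618, was held by both BMH-21 libraries and neither Mock library. It was the only gained region at an end of the 8 genes, out of 10 end regions that both BMH-21 libraries held (background 4.14%). Inside Top1mt the Mock libraries had 3 and 2 peaks and the BMH-21 libraries none, and the opposite end was lost as well, a peak of 589 and 786 bp in Mock. In the treated libraries Top1mt thus had a wider peak at 1 end and no peak away from that end. Its 3 lost regions had low ranks by fold, at percentiles of 9.77 to 33.6 in the Mock lists. By −log10 q, which sets the lists of equal length, their percentiles were 26.2 to 68.9. None of the 3 counted as lost with lists of equal length.

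Top2a encodes the type II enzyme of dividing cells that untangles sister chromatids, and Top2b the type II enzyme that also acts at promoters in cells that do not divide. Top2a lies on chromosome 11 from 98992947 to 99024199, and the promoter table starts it on the minus strand at 99024189. Its start peak was 1136 and 965 bp wide in the BMH-21 libraries and 849 and 914 bp in the Mock libraries. The summits were 99 bp inside and 1 bp outside the gene in the BMH-21 libraries, against 10 bp outside and 105 bp inside in the Mock libraries, so the groups overlapped. Inside Top2a each BMH-21 library had 1 small peak, at different places (6.14 and 21.8 kb from the kept end), and the Mock libraries had none.

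Top2b lies on chromosome 14 from 16365206 to 16430787 on the plus strand. It had a single peak in every library, the one at its start, with a width of 1367 and 1591 bp in the BMH-21 libraries and 1807 and 1828 bp in the Mock libraries. Replicates agreed closely on the summit and the groups did not. The summit lay 98 bp outside the gene in both BMH-21 libraries, at the same base (16365108), and 311 and 312 bp inside the gene in the Mock libraries. The nearest summits of the groups were 409 bp apart, the largest such gap among the 8 genes. The right-hand end of Top2b lies 52 bp from an end of Rarb, a retinoic acid receptor gene, and no library had a peak within 1 kb of it.

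Top3a encodes a type I enzyme that works with the BLM helicase to separate joined DNA molecules, and Top3b a related enzyme that can also act on RNA. Top3a lies on chromosome 11 from 60738209 to 60777365. The peak at its right-hand end was 1113 and 1067 bp wide in the BMH-21 libraries and 1146 and 1151 bp in the Mock libraries. Its summit lay 2 and 14 bp outside the gene in the BMH-21 libraries and 34 and 275 bp inside it in the Mock libraries. Within 1 kb of this peak lies an end of Smcr8, an autophagy gene, 160 bp from Top3a, and the peak cannot be given to either gene alone. Inside Top3a, 3 regions were held by both Mock libraries and none by a BMH-21 library. The strongest of these, from 60756144 to 60756740, stood at the 87.2 and 88.2 percentile of the fold in the Mock lists. By fold this was about as high as the Top3a end peak itself (88.3 and 81.4). Its −log10 q was lower, at 21.1 and 21.9 against 50.1 and 39.4 for the end peak. The region from 60756144 was the lost region that remained lost with lists of equal length.

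Top3b lies on chromosome 16 from 16870722 to 16892986, on the plus strand. Its start peak differed least in mean width among the 8, at 714 and 650 bp in the BMH-21 libraries and 728 and 654 bp in the Mock libraries. The summits lay 125 and 132 bp inside the gene in the BMH-21 libraries and 115 and 301 bp inside it in the Mock libraries, so the groups overlapped. Near the other end of Top3b 2 weak peaks were called, both in Mock replicate 2 alone.

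Tdp1 encodes the enzyme that frees trapped TOP1 from DNA. It lies on chromosome 12 from 99884515 to 99955223 on the plus strand, and it held 18 of the 40 regions of the 8 genes. A pair of end regions was kept in all 4 libraries. The inner one covers the start of Tdp1 and was 596 and 585 bp wide in the BMH-21 libraries and 926 and 594 bp in the Mock libraries. Its summit lay 5 bp outside and 1 bp inside the gene in the BMH-21 libraries and 235 and 131 bp inside it in the Mock libraries. The outer one, from 99883075 to 99883708, has its summit within 38 bp of the start site of Efcab11, a neighbour transcribed from the minus strand, in all 4 libraries (32 bp or less in the BMH-21 libraries). An annotated end of Efcab11 also lies 73 bp from Tdp1, so both peaks lie near the ends of both genes.

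Along the rest of Tdp1 the Mock libraries had 10 and 7 peaks and the BMH-21 libraries 2 and 2. Of 5 inner regions that both Mock libraries held, 4 were lost, and the fifth, from 99923765 to 99924651, was also called in BMH-21 replicate 1. A separate region beside it, from 99923123 to 99923406, was held by both BMH-21 libraries and neither Mock library (background for gained regions inside genes 25.8%). Without Tdp1, the other genes had 5 both-Mock regions inside them and all 5 were lost. Among 1702 kept autosomal genes of 50 to 100 kb, a length range chosen after the values were seen, 28.3% and 33% had at least as many inner peaks as Tdp1 in the BMH-21 libraries, and 13% and 26.6% in the Mock libraries. Top1 and Top2b, of similar length, had no inner peak in either Mock library, like 11.5% of these genes.

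Tdp2 encodes the enzyme that frees trapped TOP2 from DNA. It is the shortest of the 8 genes at 10.5 kb, on chromosome 13 from 24831659 to 24842153, and had a single peak in every library. The peak was 1282 and 1029 bp wide in the BMH-21 libraries and 1030 and 1012 bp in the Mock libraries, so the groups overlapped. The summits differed little between replicates and lay 24 and 27 bp inside the gene in the BMH-21 libraries, against 142 and 146 bp in the Mock libraries. An end of Acot13, a thioesterase gene, lies 170 bp away and falls under the same peak. Tdp1, Tdp2 and Top3a, 3 of the 8 genes, thus share their kept end with a neighbouring protein-coding gene, as do 23.5% of 11011 autosomal genes with a single kept end.

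**Figure D3:**
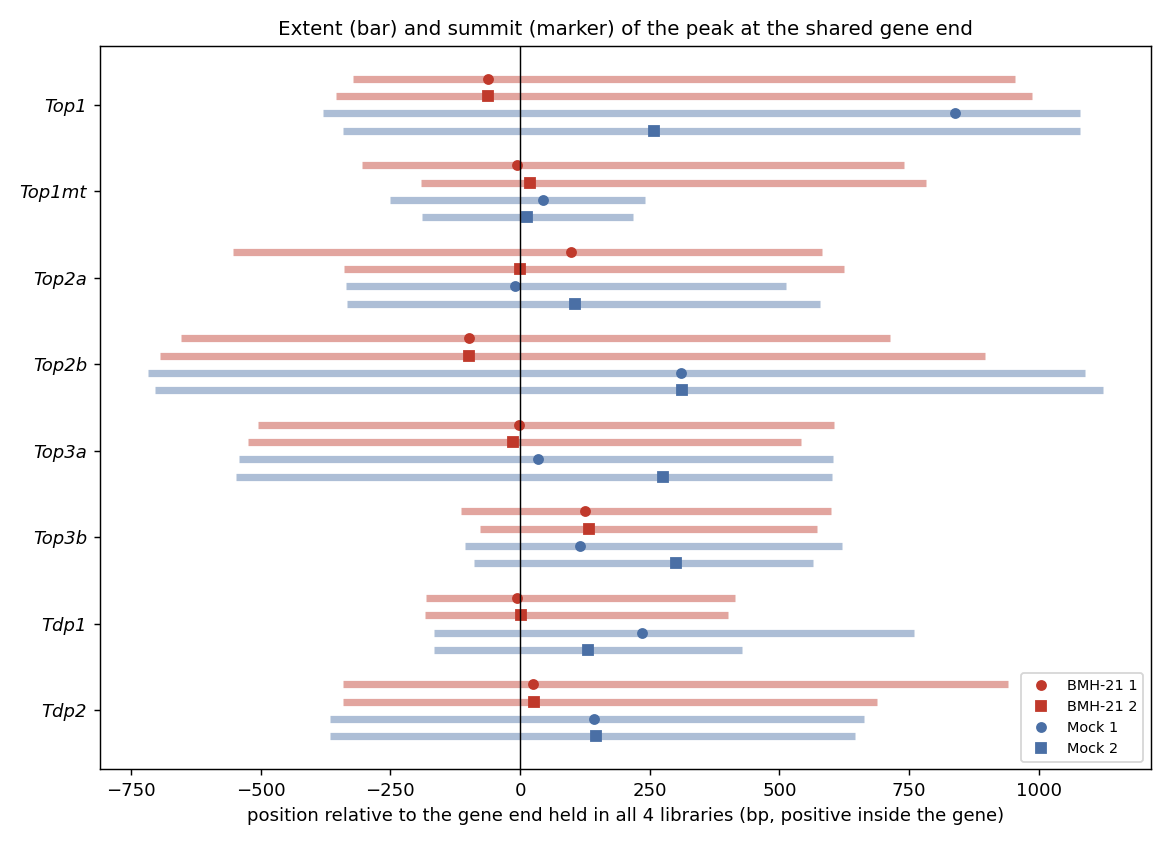
Extent (bar) and summit (marker) of the peak nearest the gene end held in all 4 libraries, in bp from that end and positive inside the gene, with BMH-21 in red above Mock in blue and circles and squares for replicates 1 and 2. In Top1, Top2b, Top3a, Tdp1 and Tdp2 both BMH-21 summits lie nearer the gene end than both Mock summits.

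The position of the summit differed between the groups in 1 direction. In Top1, Top2b, Top3a, Tdp1 and Tdp2 both BMH-21 summits lay nearer to the gene end than both Mock summits, and in no gene was the reverse seen. Over the 8 genes the mean distance between summit and gene end was 52.5 and 44.3 bp in the BMH-21 libraries and 216 and 193 bp in the Mock libraries. The difference was -156 bp (48.4 ± 5.83 bp in BMH-21 and 205 ± 16.6 bp in Mock, SD, n = 2 each, exact permutation p = 0.33, the smallest possible). The same direction was seen across the genome. Of 11011 autosomal protein-coding genes with exactly 1 kept end, 53.9% had nearer summits in both BMH-21 libraries and 15% had farther ones. Their mean distance was 241 and 234 bp in the BMH-21 libraries and 321 and 317 bp in the Mock libraries, a difference of -81.4 bp. Their median distance was 120 and 117 bp in the BMH-21 libraries, against 226 and 224 bp in the Mock libraries. For the 8 genes the median was 43 and 23 bp in BMH-21, against 128.5 and 202.5 bp in Mock. The mean of the 8 genes in Mock replicate 1 includes Top1 at 839 bp. Summits lay inside the gene for 61.6 and 61.8% of the 11011 genes in the BMH-21 libraries and for 79.6 and 79.4% in the Mock libraries. Among the 8 genes the counts were 3 and 4 in the BMH-21 libraries and 7 and 8 in the Mock libraries. When the strongest gene-end peak was used in place of the nearest, the difference was -22.9 bp, because the strongest end peak of Tdp1 was then the one at Efcab11 in the BMH-21 libraries.

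Width gave no common direction. The groups did not overlap in 5 of the 8 genes, wider in BMH-21 for Top1mt and Top2a and narrower for Top1, Top2b and Top3a. Across the same 11011 genes, 24.1% were wider and 45.6% narrower in both BMH-21 libraries. The mean width of the strongest gene-end peak over the 8 genes was 1047 ± 30.3 bp in BMH-21 and 1026 ± 40.1 bp in Mock libraries (SD, n = 2 each, exact permutation p = 0.67), a difference smaller than the spread between replicates. Leaving out BMH-21 replicate 1 or Mock replicate 2 turned its sign (-0.5 and -7.44 bp). Over 12125 kept genes the mean was 919.7 ± 15.1 bp in BMH-21 and 1032 ± 0.34 bp in Mock libraries (exact permutation p = 0.33).

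Peaks were ranked within a list by fold enrichment over local background, a value set by the authors' caller. Lists of different length were ranked separately, so the percentiles of the groups are only set side by side, and a difference between them cannot be read as a change. In both BMH-21 lists Top2b and Top3b took the first ranks among the 8 kept-end peaks, at the 93.8 and 89.1 percentile for Top2b and the 91.8 and 90.8 percentile for Top3b. Tdp1 was last in both, at the 53.7 and 50.3 percentile. In both Mock lists Tdp2 was first, at the 97.6 and 97.8 percentile, and Top1mt last, at the 63.5 and 64.0 percentile. The order by fold was therefore alike in replicates and differed between the groups at both of its extremes. By the percentile of −log10 q, Top2b was also first in both BMH-21 lists (98.9 and 96.6). Top3b stood lower by that value (90.3 and 91.6), below Tdp2 (96.3 and 94.4) and Top1 (93.4 and 92.8). Tdp1 was last (80.5 and 79.9), close to Top1mt (81.8 and 80.0). In the Mock lists Tdp2 stayed first and Top1mt last. The regions inside the genes that were lost mostly had lower ranks by fold in the Mock lists. Averaged over both Mock lists, their percentiles had a median of 45.4 and a range of 17.3 to 87.7 over 9 regions, while the 9 kept end regions ranged from 63.7 to 97.7 with a median of 89.3. The same averages were at most 28.0 for the 4 lost end regions.

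**Figure D4:**
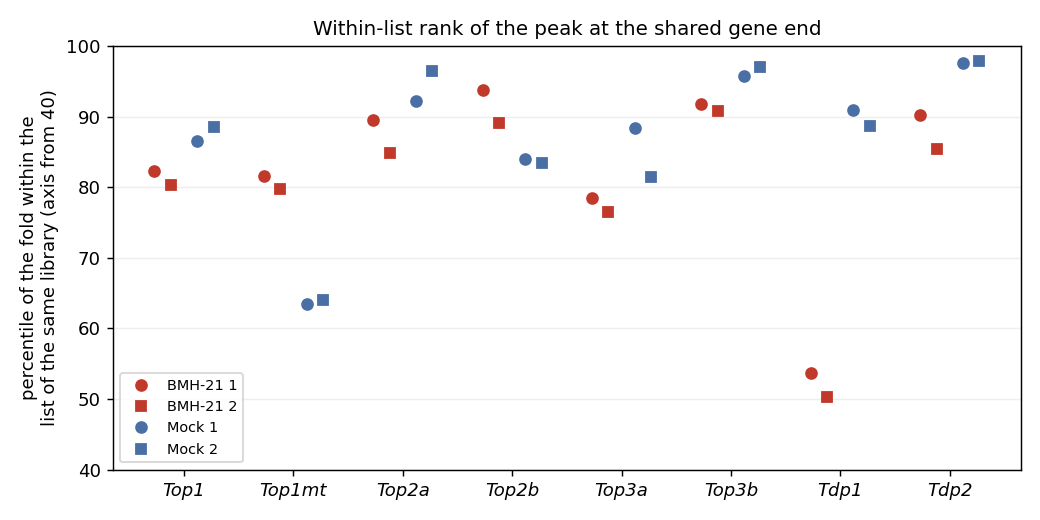
Percentile of the authors' fold within the list of the same library (axis from 40 to 100) for the peak at the gene end held in all 4 libraries, with BMH-21 in red left of Mock in blue and circles and squares for replicates 1 and 2. Tdp1 is lowest in the BMH-21 lists and Top1mt in the Mock lists.

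Other genes that work with these enzymes were described in the same way. Of 48 genes in 5 lists, 45 were kept, none was lost and none gained, beside 11.7% lost and 2.85% gained in the background. The gene said to lead a list has its highest mean percentile in the Mock lists, and need not lead in the BMH-21 lists. All 5 partners of TOP3 and BLM were kept, led by Blm itself, the helicase gene (percentile 95.2 and 96.1 in the BMH-21 lists, 98.0 and 97.4 in the Mock lists). So were all 7 genes of R-loop removal, led by Rnaseh2b, a subunit of an enzyme that cuts RNA paired with DNA (94.8 and 95.6 in BMH-21, 98.3 and 98.5 in Mock). All 8 condensin genes were kept, led in Mock by Smc2, a core subunit of that chromosome-compacting complex (90.2 and 87.2 in BMH-21, 99.3 and 99.3 in Mock). In both BMH-21 lists Ncaph (94.7 and 95.3), Ncapg (93.2 and 93.6) and Ncapg2 (93.2 and 95.0) stood above Smc2.

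Of 21 genes that repair topoisomerase adducts and the breaks they leave, 19 were kept, led by Nbn of the MRN break-sensing complex (96.2 and 97.2 in the BMH-21 lists, 99.7 and 99.5 in the Mock lists). Rbbp8 and Xrcc6 had no gene-end peak in any library. Of the 7 genes of the SPO11 machinery 6 were kept, led in Mock by Mei4, which is needed for meiotic break formation (67.2 and 88.7 in BMH-21, 99.3 and 99.6 in Mock). In BMH-21 replicate 1 Mei4 was the lowest of these 6. Gm960, also listed as Top6bl (98.6 and 99.2), and Iho1 (98.9 and 95.5), named after their values were seen, stood above Mei4 in both BMH-21 lists. Spo11 itself, named after its values were seen, had a weak gene-end peak in BMH-21 replicate 1 (percentile 6.02) and none in replicate 2, against percentiles of 52.9 and 28.8 in the Mock lists. Without BMH-21 replicate 1 it counted as lost.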

How the data were processed

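ATAC-seq was measured in pachytene spermatocytes, about 10000 cells per sample per the labels, with 2 libraries per group. Tools listed per the submitters' processing notes are MACS2 2.1.0, Bowtie2, fastp, deepTools and bedtools, with both mm39 and mm10 as builds. For calling parameters, read shift and duplicate removal the entry is: not given in the sources used here. Since every library has a list, peaks were called per library. The deposited fold is a ratio of summit pileup to local background within 1 library. The −log10 p and −log10 q values, also deposited, are for the same enrichment, and the deposited score is the −log10 q times 10 as a whole number. None is normalised between libraries by the authors. The build was set to mm10 because the last peak of chromosome 1 ends at 195371813 and 61.0 to 70.7% of protein-coding genes had a gene-end peak, against 14.8 to 29.4% after a shift of 50000 bp. The annotation gives gene starts and ends without exons. Positions are 1-based.

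Peaks were merged when they overlapped by at least 1 bp. Library means were compared by two-sided exact permutation of the group labels (3 distinct arrangements). No test was made over the gene list. The code (Python 3.11.15, pandas 2.3.3) was tested on simulated data. The 8 genes and the lists were chosen with earlier results of these data known. Of the lists' symbols, 48 of 49 were matched. All 8 genes, the highest-ranked gene of each list in Mock, any lost or gained list gene and the neighbours that share a peak were named by rule. An item withheld from the text is not reported here. Promoter windows were matched for 5 of the 8 genes (Top1, Top2a, Top2b, Top3b and Tdp1). Alternatives tried were a −log10 q of at least 5, lists of equal length, 100 bp on either side of summits, a 50% overlap, windows of 500 bp and 2.5 kb, leaving out each library and a replicate block. The settings for summit positions were chosen after seeing the data. Shares cover counting within these 4 libraries only.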

Additional observations from a re-analysis of the deposited data

How the results depend on the processing

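Of 161 values recomputed under 14 alternatives, 150 kept their direction or, for counts, stayed within 1.5 times the value reported, though differences among them could shrink. All 8 genes were kept under each alternative run on that count. With lists of equal length, which hold fewer Mock peaks by construction, the difference in peak number over the 8 genes was 0 (exact p = 1), the lost regions numbered 0 at gene ends and 1 inside genes, and 7.19% of autosomal protein-coding genes whose ends held peaks in both Mock libraries were lost. The difference in covered width was then -638 bp, and -2914.5 bp with peaks of 100 bp on either side of the summit, against -6439 bp. The value of -2914.5 bp restates the number of peaks, since all peaks then have the same width. The difference in summit distance was -22.9 bp with the strongest in place of the nearest end peak, against -156 bp. The mean width of the strongest end peak turned to -7.44 bp without Mock replicate 2 and -0.5 bp without BMH-21 replicate 1 (range -7.44 to 49.3 bp). Lost regions inside genes ranged from 9 to 15 without 1 library, and lost list genes from 0 to 1, while 1 list gene was lost with windows of 500 bp. The cause was not tested. Ranked by −log10 q, the mean percentile of the 8 end peaks was 90.3 in BMH-21 and 93.6 in Mock lists, against 81.1 and 87.3 by fold.

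The groups share replicate numbers, but the labels do not say that a number marks a shared animal or day. Deviations of same-numbered libraries were not correlated (Pearson r = 0.00806 over 12125 genes, log2 fold of the strongest end peak, genes not being independent replicates). With the replicate block the differences were -15 peaks, -6439 bp covered, 20.9 bp of width and -156 bp of summit distance (exact sign-flip p = 0.5 each, the smallest possible for 2 pairs). By construction they equal the differences without the block, and they count among the values above that kept their direction. With summit windows of 100 bp on either side, 6 end regions of the 8 genes were kept in place of 9. Read totals per library were not used, so no limit from depth can be set.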
